A study of Mus musculus with 3 samples.

Results

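The interferon-stimulated genes described here are a set of 31 protein-coding genes, taken by name: the type I style genes Isg15, Ifit1, Ifit2, Ifit3 and Ifit3b, the gamma style GTPases Gbp2, Gbp3, Gbp4, Gbp7, Igtp, Irgm1, Irgm2 and Iigp1, the transcription factors Irf7, Irf1, Irf9 and Stat2, and 14 further effectors, sensors and regulators. All 31 were present among the 55421 gene entries of the count matrices. The study sequenced single cells from the livers of wild-type (WT) mice and compared oral and injected iron after iron deprivation. All 3 mice had eaten an iron-deficient diet (IDD, 2 to 6 ppm iron) for 1 week. The IDD+HTF mouse was then given 10 mg of holo-transferrin (iron-loaded transferrin, holo-Tf) into the tail vein, with the time to collection not given in the sources used here. The IDD+HID mouse was moved to a high-iron diet (2% carbonyl iron) for 18 h, and the IDD mouse got no iron and served as the baseline. Each group is 1 library from 1 mouse, so no difference below has a replicate check, no p-value can be given, and every interval is a 95% interval for counting error only.

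Interferons are secreted proteins that switch on an antiviral and antimicrobial programme in the cells they reach. Type I interferons signal through the receptor chains Ifnar1 and Ifnar2 and a complex holding Stat2 and Irf9 that binds interferon-stimulated response elements (ISRE), and genes such as Isg15 and the Ifit family are read as its typical targets. Interferon gamma, made mainly by T and NK cells, signals through Ifngr1 and Ifngr2 to gamma-activated sites (GAS) in its target genes, and induces guanylate-binding proteins, immunity-related GTPases and antigen presentation genes, although many genes answer to both.

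Cells were taken from perfused, enzyme-digested livers, and a small part of the hepatocyte suspension was mixed back into the non-parenchymal cells before loading on a 10x Genomics 3′ chip. After filtering, 3203 cells remained in IDD+HTF, 3538 in IDD+HID and 1311 in IDD, with a median of 4449, 8596 and 3639 UMIs (unique molecules) per cell in IDD+HTF, IDD+HID and IDD. Cells were clustered without the 31 genes and without the other interferon pathway genes listed below, and classes were named from marker genes. The sinusoidal endothelial-like class (clusters 1, 12 and 21) held 776, 1164 and 330 cells, and the Kupffer-like class (clusters 3 and 22), liver macrophages, held 379, 532 and 93 cells in IDD+HTF, IDD+HID and IDD. Levels are in CPM, the UMIs of a gene in all cells of a class as parts in 1000000 of the class total. A level can be set beside that of the same gene in another library or class, although it also depends on the rest of the class total. Levels are not meant for comparison between genes. A gene counted as measured in a comparison when both libraries together held 50 or more of its UMIs, and as higher or lower at 1.5-fold or more. Both iron-treated libraries were compared with the same IDD library, so their differences from it are not independent.

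The promoters of the set carried the letters of the elements named above more often than promoters at large. RefSeq promoter sequences (250 bases before to 50 after the start, GRCm38.p6) were at hand for 24 of the 31 genes, and Gbp4, Iigp1, Usp18, Rtp4, Ifi27l2a, Parp14 and Zbp1 had none in the table used. The ISRE core GAAANNGAA, searched on both strands with overlapping matches counted separately, was found in 18 of the 24 genes (75%), against 9.76% of all 27025 genes and 8.56% of all 32851 promoters. It was found in 4 of 5 type I style genes, 6 of 6 gamma style GTPases, 1 of 4 transcription factors and 7 of 9 other genes. The GAS core TTCNNNGAA was found in 8 of the 24 genes (33.3%), against 9.55% of all genes and 8.3% of all promoters: 1 of 5 type I style genes, 3 of 6 GTPases, 1 of 4 transcription factors and 3 of 9 others. The windows of 120 bases below were chosen to show the main arrangements, with matches to either motif in capitals. Isg15 (chr4:156200807-156200926, minus strand) held a run of 3 overlapping ISRE cores starting at -78, -72 and -66 from the start of transcription, and Ifit1 (chr19:34640750-34640869, plus strand) 3 at -109, -103 and -84. Gbp2 (chr3:142620575-142620694, plus strand) held 1 ISRE core at -58. Igtp (chr11:58199481-58199600, plus strand) and its neighbour Irgm2 (chr11:58214872-58214991, plus strand) held a GAS core followed at once by an ISRE core, and their windows differed at 2 of 120 bases. Irf1 (chr11:53769894-53770013, plus strand) held a GAS core at -90 and no ISRE core. A match is a string of letters and not a measured binding site.
Isg15: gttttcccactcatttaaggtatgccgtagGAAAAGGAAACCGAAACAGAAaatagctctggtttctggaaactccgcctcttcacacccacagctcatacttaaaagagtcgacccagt
Ifit1: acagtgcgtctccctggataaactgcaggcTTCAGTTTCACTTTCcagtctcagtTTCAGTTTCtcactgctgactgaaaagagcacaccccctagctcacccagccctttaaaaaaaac
Gbp2: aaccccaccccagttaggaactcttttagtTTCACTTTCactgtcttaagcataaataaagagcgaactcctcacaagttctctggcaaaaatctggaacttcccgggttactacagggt
Igtp: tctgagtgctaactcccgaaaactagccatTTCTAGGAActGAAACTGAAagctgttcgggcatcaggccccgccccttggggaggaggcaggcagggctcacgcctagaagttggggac
Irgm2: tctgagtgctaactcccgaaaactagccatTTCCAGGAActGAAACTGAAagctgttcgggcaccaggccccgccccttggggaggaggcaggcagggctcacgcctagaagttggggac
Irf1: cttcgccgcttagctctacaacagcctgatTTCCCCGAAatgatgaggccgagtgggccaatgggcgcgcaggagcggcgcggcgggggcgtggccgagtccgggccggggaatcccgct

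In sinusoidal endothelial-like cells a few of the 31 genes stood apart between the libraries and most did not. In IDD+HTF against IDD, 30 of the 31 were measured, 6 were higher (Isg15, Iigp1, Irf7, Oas1a, Rtp4 and Ifi27l2a) and 1, Gbp4, was lower, where 10.0% of all measured genes were higher and 10.2% lower by the same rule. In IDD+HID against IDD, 7 of 30 were higher (Isg15, Ifit3, Iigp1, Irf1, Oas1a, Rsad2 and Ifi27l2a) and again only Gbp4 lower, where 14.6% of all measured genes were higher and 19.7% lower. The median log2 difference of the set was 0.32 in IDD+HTF and 0.17 in IDD+HID, beside 0.02 and -0.0036 over all measured genes. The gene not measured was Zbp1, a sensor of unusual nucleic acid structures that can start necroptosis, at 3.91 CPM in IDD+HTF, 2.96 in IDD+HID and 5.6 in IDD.

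Kupffer-like cells showed movement both ways. All 31 genes were measured, and in IDD+HTF 9 were higher (Isg15, Ifit1, Irf9, Oas1a, Usp18, Ifi27l2a, Ifih1, Ddx58 and Parp14) and 4 lower (Gbp3, Gbp4, Irf1 and Zbp1), beside 15.6% higher and 5.40% lower among all measured genes. In IDD+HID 4 were higher (Isg15, Oas1a, Ifih1 and Ddx58) and 5 lower (Gbp3, Gbp4, Igtp, Irgm2 and Zbp1), beside 19.2% higher and 7.54% lower among all. The set's median log2 difference was 0.23 in IDD+HTF and 0.07 in IDD+HID, beside 0.09 and 0.12 over all measured genes, so the centre of the set moved little relative to other genes. In both classes and both iron-treated libraries, Isg15 and Oas1a were higher and Gbp4 was lower, although Oas1a in sinusoidal endothelial-like cells rested on 10 IDD UMIs.

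**Figure D1:**
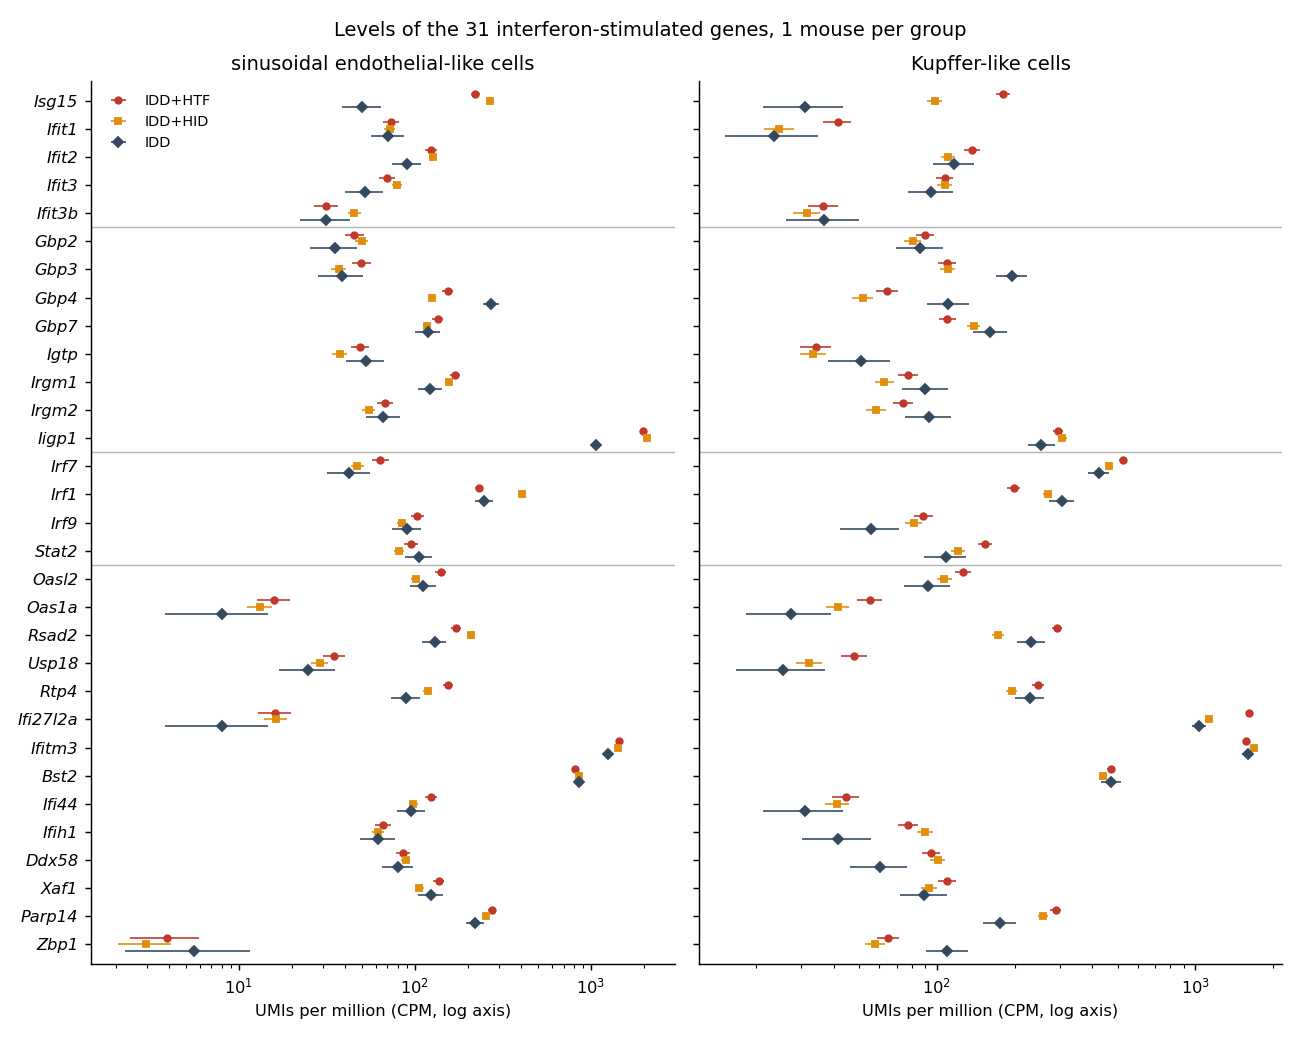
Levels of the 31 genes in sinusoidal endothelial-like and Kupffer-like cells as CPM on a log axis, 1 point per library (IDD+HTF, IDD+HID and IDD) with exact Poisson 95% intervals for counting error. Isg15 sits apart from the IDD library in both iron-treated libraries and both classes, at 220 and 266 CPM against 50.4 CPM in sinusoidal endothelial-like cells, while Gbp4 sits below it, at 154 and 125 CPM against 272 CPM.

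The ligands were almost absent from the data. None of the 21 interferon genes listed was measured in sinusoidal endothelial-like or Kupffer-like cells. Over all cells Ifnb1 had 0 UMIs in IDD+HTF, 7 in IDD+HID and 2 in IDD. The exception was Ifng, interferon gamma, in T-like cells, a gene singled out here after its values were seen. Ifng stood at 612 CPM in IDD+HTF, 626 CPM in IDD+HID and 943 CPM in IDD in that class. It was thus lower in both iron-treated libraries, at 0.649 times the IDD level in IDD+HTF (0.566 to 0.744) and 0.664 times in IDD+HID (0.593 to 0.744). The class joins clusters 10 and 16, and Ifng is among the leading genes of cluster 16. That cluster held 72 of 131 T-like cells in IDD+HTF, 148 of 255 in IDD+HID and 53 of 75 in IDD. The part of this mix in the Ifng values was not tested. In the small NK or ILC1-like class (39, 84 and 17 cells in IDD+HTF, IDD+HID and IDD) Ifng stood at 1889 CPM in IDD+HTF, 792 in IDD+HID and 1021 in IDD, with no common direction.

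Few receptor genes were called in the main classes. Of the 6 receptor genes listed, 5 were measured in sinusoidal endothelial-like and in Kupffer-like cells, 0 were called in either direction in Kupffer-like cells, and in sinusoidal endothelial-like cells Ifngr2 alone was called, at 67.8 CPM in IDD+HTF, 111 in IDD+HID and 67.2 in IDD (1.65-fold higher in IDD+HID, 1.32 to 2.08). Ifnar1 stood at 58.3 CPM in IDD+HTF, 49.5 in IDD+HID and 63.2 in IDD in sinusoidal endothelial-like cells. Elsewhere, in IDD+HID, 3 of 5 measured receptor genes were higher in T-like cells (Ifnar1, 151 CPM, against 96.5 in IDD, Ifngr1, 471 CPM, against 272 in IDD, and Ifngr2, 31.1 CPM, against 18 in IDD from 8 UMIs), beside 15.0% higher among all genes measured there. In stellate-like cells Ifngr1 was higher in IDD+HTF, and Ifngr1 and Ifngr2 in IDD+HID, beside 23.8% and 31.1% higher among all genes in IDD+HTF and IDD+HID, and in IDD+HID vascular endothelial-like cells Ifnar1 was lower, beside 12.3% lower among all. In B-like cells Ifnar1 was lower in IDD+HTF and Ifngr1 higher in IDD+HID, and in IDD+HID hepatocyte-like cells Ifnar2 was higher. No share among all genes is given for these classes, and the hepatocyte-like values depend on the scaling, as given below.

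Among the 10 signalling genes and brakes listed, the brakes Socs1 and Socs3 were higher. Socs1, which blocks Janus kinases, stood at 102 CPM in IDD+HTF, 178 in IDD+HID and 50.4 in IDD in sinusoidal endothelial-like cells. It was 2.03-fold (1.56 to 2.68) higher in IDD+HTF and 3.54-fold (2.75 to 4.62) higher in IDD+HID. In Kupffer-like cells Socs1 was at 21.3 CPM in IDD+HTF, 21.9 in IDD+HID and 4.71 in IDD, the last from 5 UMIs, and 4.52-fold (1.89 to 14.1) and 4.66-fold (1.96 to 14.5) higher in IDD+HTF and IDD+HID. Socs3, a related brake on cytokine receptors, was 1.57-fold (1.37 to 1.82) higher in IDD+HTF and 2.89-fold (2.53 to 3.31) higher in IDD+HID in sinusoidal endothelial-like cells. It was also higher in Kupffer-like cells, 3.68-fold (2.02 to 7.48) in IDD+HTF and 5.77-fold (3.2 to 11.6) in IDD+HID. There Socs3 stood at 38.1 CPM in IDD+HTF, 59.7 in IDD+HID and 10.4 in IDD, the last from 11 UMIs.

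Counted over the list, sinusoidal endothelial-like cells had 2 of 9 measured genes higher in IDD+HTF and 3 of 9 in IDD+HID, and Kupffer-like cells had 3 of 10 higher in each iron-treated library. Besides those above, the higher genes were the phosphatase Ptpn2 in IDD+HID sinusoidal endothelial-like cells (39.4 CPM, against 25.6 in IDD), the kinase Jak2 in IDD+HTF Kupffer-like cells (41.7 CPM, against 26.4 in IDD) and its relative Jak1 in IDD+HID Kupffer-like cells (303 CPM, against 179 in IDD). Of the 14 nucleic acid sensors and adaptors listed, 2 of 10 measured were higher in IDD+HTF and 1 of 10 in IDD+HID in sinusoidal endothelial-like cells, 1 of 12 in each in Kupffer-like cells, and 0 lower in any of these. Both lists' counts stand beside 10.0% and 14.6% higher among all measured genes in sinusoidal endothelial-like cells and 15.6% and 19.2% in Kupffer-like cells in IDD+HTF and IDD+HID. The transcription factor Irf8 was higher in both iron-treated libraries in sinusoidal endothelial-like cells, at 247 CPM in IDD+HTF, 279 in IDD+HID and 162 in IDD, the adaptor Myd88 in IDD+HTF alone (43.8 CPM, against 27.2 in IDD), and Irf3 in IDD+HTF Kupffer-like cells (48 CPM, against 31.1 in IDD).

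The transcription factors within the set did not move together. Irf1, an activator induced by interferon gamma and by inflammatory signals, stood at 231 CPM in IDD+HTF, 408 in IDD+HID and 248 in IDD in sinusoidal endothelial-like cells. The IDD+HID library alone was high, 1.65-fold (1.47 to 1.85) over IDD, and IDD+HTF was at 0.933 times the IDD level, or 1.03 times with TMM scaling (a trimmed mean of gene ratios). In Kupffer-like cells Irf1 was at 198 CPM in IDD+HTF, 269 in IDD+HID and 305 in IDD, lower in IDD+HTF at 0.651 times and at 0.881 times in IDD+HID. Irf7, which amplifies type I responses, was at 63.9, 47.2 and 42.4 CPM in IDD+HTF, IDD+HID and IDD in sinusoidal endothelial-like cells, 1.51-fold higher in IDD+HTF and 1.11 times the IDD level in IDD+HID. Irf7 was far more abundant in Kupffer-like cells, at 523 CPM in IDD+HTF, 464 in IDD+HID and 423 in IDD, with no call in either. Irf9, a part of the type I complex, was at 88.8 CPM in IDD+HTF, 81.6 in IDD+HID and 55.5 in IDD in Kupffer-like cells, 1.6-fold higher in IDD+HTF and 1.47 times in IDD+HID, just under the rule. Its partner Stat2 was not called in either class, at 95.2, 81 and 106 CPM in IDD+HTF, IDD+HID and IDD in sinusoidal endothelial-like cells and 154, 121 and 108 CPM in Kupffer-like cells.

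Isg15, a ubiquitin-like protein that is attached to other proteins during the response, showed the largest ratio of the set in both classes and both iron-treated libraries. In sinusoidal endothelial-like cells it stood at 220 CPM (208 to 233) in IDD+HTF, 266 (257 to 276) in IDD+HID and 50.4 (38.7 to 64.5) in IDD. Both iron-treated libraries were high and their intervals lay clear of the IDD interval, with ratios of 4.37 (3.39 to 5.73) in IDD+HTF and 5.28 (4.11 to 6.89) in IDD+HID. In Kupffer-like cells it stood at 181 CPM (170 to 192) in IDD+HTF, 98.2 (91.7 to 105) in IDD+HID and 31.1 (21.4 to 43.6) in IDD. The order differed here, with IDD+HTF the higher of the iron-treated libraries, 5.82-fold (4.12 to 8.49) over IDD against 3.16-fold (2.23 to 4.62) in IDD+HID.

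The same difference was seen as cells with an Isg15 molecule. With every cell thinned to 1000 UMIs, the expected share of sinusoidal endothelial-like cells with an Isg15 UMI was 16.1% in IDD+HTF, 18.6% in IDD+HID and 2.91% in IDD, against 46%, 57.1% and 9.39% in IDD+HTF, IDD+HID and IDD before thinning, at median depths of 6192, 9904 and 3397 UMIs. In Kupffer-like cells the thinned shares were 14.6% in IDD+HTF, 8.15% in IDD+HID and 4.23% in IDD (69.4%, 54.1% and 23.7% unthinned, at 16171, 16380 and 11048 UMIs). The B-like class, with a median depth of 3600, 4567 and 4041 UMIs, gave 1.87%, 1.14% and 0.548% thinned and 6.11%, 5.21% and 2.2% unthinned in IDD+HTF, IDD+HID and IDD, the lowest such shares among the 3 classes given here, and how much of them is free RNA was not tested. Free RNA moved in the same direction: droplets of at most 100 UMIs held Isg15 at 54 CPM in IDD+HTF, 76.9 in IDD+HID and 14.1 in IDD. By hepatocyte markers, free RNA could make up at most 6.71%, 6.39% and 9.89% of the UMIs of sinusoidal endothelial-like cells and 3.47%, 3.81% and 3.06% of those of Kupffer-like cells in IDD+HTF, IDD+HID and IDD, so the droplet level times that share falls well below the class levels.

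The Ifit genes, RNA-binding proteins that hold back translation of foreign RNA and the usual companions of Isg15, did not follow it to that extent. Summed over Ifit1, Ifit2, Ifit3 and Ifit3b, a sum formed after the values were seen, they stood at 298 CPM in IDD+HTF, 323 in IDD+HID and 244 in IDD in sinusoidal endothelial-like cells, 1.22 times (1.08 to 1.38) and 1.32 times (1.18 to 1.49) the IDD level. In Kupffer-like cells the sums were 322, 274 and 272 CPM in IDD+HTF, IDD+HID and IDD, 1.18 times (1.05 to 1.34) in IDD+HTF and 1.01 times (0.892 to 1.14) in IDD+HID, the last 0.93 times with median-of-ratios scaling. These ratios lie outside the Isg15 intervals above. By gene, Ifit1 was at 73.4, 72.1 and 70.4 CPM and Ifit2 at 123, 126 and 90.4 CPM in IDD+HTF, IDD+HID and IDD in sinusoidal endothelial-like cells. Ifit3, at 69.7, 79.4 and 52 CPM in IDD+HTF, IDD+HID and IDD, passed the rule in IDD+HID alone (1.53-fold, 1.19 to 2), and Ifit3b stood at 31.5, 45.4 and 31.2 CPM. In Kupffer-like cells Ifit1 was at 41.4 CPM in IDD+HTF, 24.7 in IDD+HID and 23.5 in IDD, 1.76-fold (1.16 to 2.77) higher in IDD+HTF, and the other 3 were not called, with Ifit2 at 137, 111 and 117 CPM, Ifit3 at 107, 107 and 95 CPM and Ifit3b at 36.5, 31.6 and 36.7 CPM in IDD+HTF, IDD+HID and IDD. Ifit3 and Ifit3b share 12.9% of the sequence words at their 3′ ends, and the 120-base promoter windows of both, with 3 ISRE cores each, were identical. With Isg15 included, the type I style sum was 1.76 times the IDD level in IDD+HTF and 2.00 times in IDD+HID in sinusoidal endothelial-like cells, and 1.66 and 1.23 times in Kupffer-like cells.

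**Figure D2:**
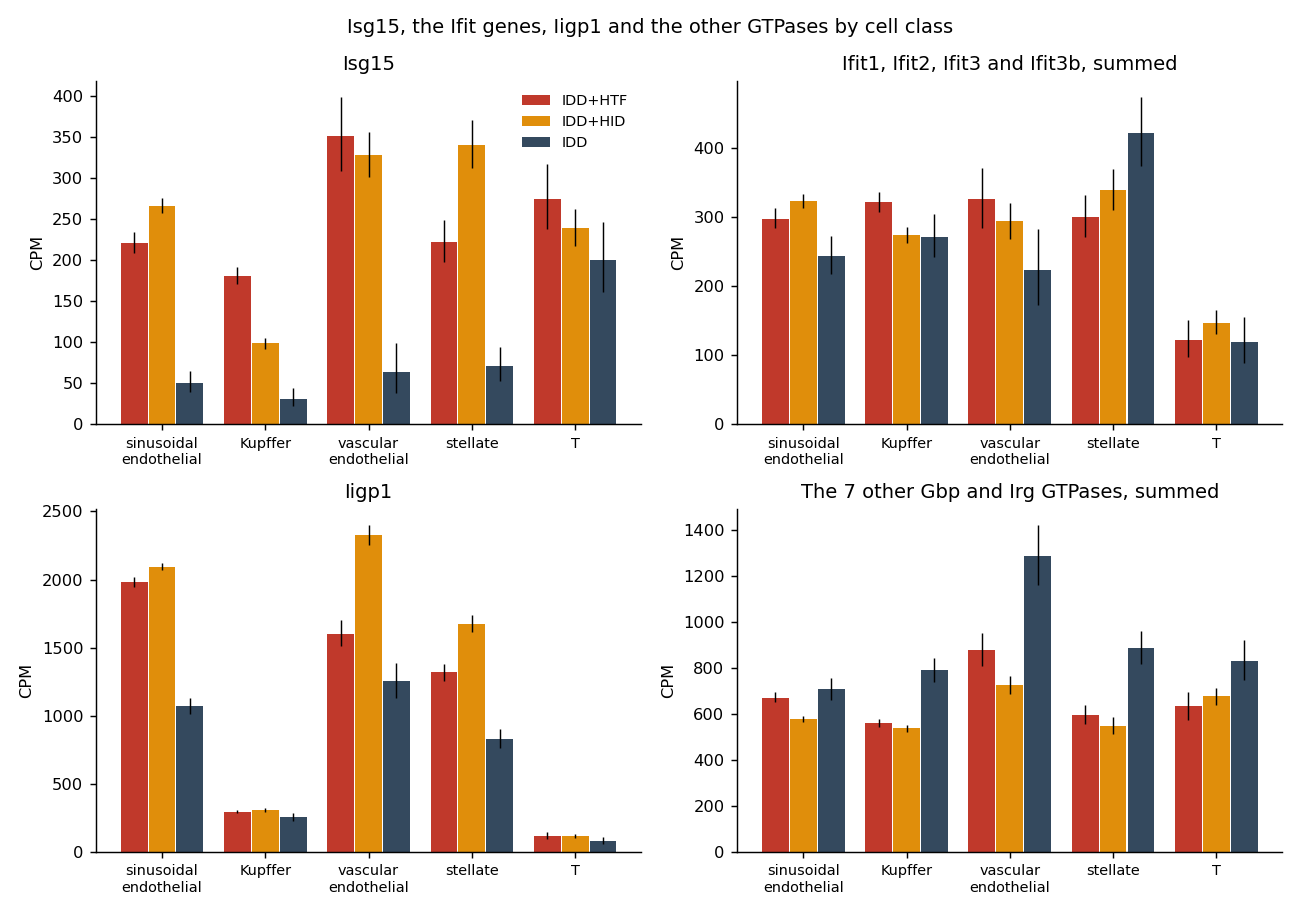
CPM of Isg15, of the 4 Ifit genes together, of Iigp1 and of the 7 other gamma style GTPases together in 5 cell classes, as bars for IDD+HTF, IDD+HID and IDD with exact 95% intervals for counting error. Isg15 and Iigp1 bars of the iron-treated libraries stand above the IDD bar in all 5 classes. Isg15 in T-like cells and Iigp1 in Kupffer-like and T-like cells stayed under the 1.5-fold rule, as did Iigp1 in IDD+HTF vascular endothelial-like cells. The bars of the 7 other GTPases stand below the IDD bar in all 5 classes, except that TMM scaling puts IDD+HTF at 1.04 times IDD in sinusoidal endothelial-like cells.

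The gamma style GTPases split. Iigp1, an effector GTPase that is loaded onto the vacuoles of intracellular parasites, stood at 1980 CPM (1943 to 2018) in IDD+HTF, 2093 (2067 to 2120) in IDD+HID and 1069 (1013 to 1128) in IDD in sinusoidal endothelial-like cells. It was high in both iron-treated libraries, 1.85-fold (1.75 to 1.96) and 1.96-fold (1.85 to 2.07) over IDD in IDD+HTF and IDD+HID. In Kupffer-like cells it was far lower in all 3 libraries, at 295 CPM in IDD+HTF, 306 in IDD+HID and 254 in IDD, 1.16 and 1.21 times the IDD level, and was not called.

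Gbp4, a guanylate-binding protein, ran opposite to Iigp1. It stood at 154 CPM (144 to 165) in IDD+HTF, 125 (119 to 132) in IDD+HID and 272 (244 to 303) in IDD in sinusoidal endothelial-like cells, and at 64.3 (58.1 to 70.9), 51.9 (47.2 to 56.9) and 111 (91.9 to 133) CPM in IDD+HTF, IDD+HID and IDD in Kupffer-like cells. IDD was the high library in both classes, with ratios of 0.566 (0.498 to 0.644) in IDD+HTF and 0.46 (0.408 to 0.519) in IDD+HID in sinusoidal endothelial-like cells, and of 0.579 and 0.467 in Kupffer-like cells. TMM and median-of-ratios scaling kept Gbp4 below IDD and Isg15 above it in both classes. Gbp4 overlaps Gbp8 and Gbp9 on the same strand and shares a short stretch with Gbp6, so some reads may be split among these genes.

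Of the 6 other GTPases, 0 were called in sinusoidal endothelial-like cells, and in Kupffer-like cells Gbp3 was lower in both iron-treated libraries and Igtp and Irgm2 in IDD+HID. Among sinusoidal endothelial-like cells, Gbp2 (45.5, 50.1 and 35.2 CPM), Gbp3 (49.7, 37.1 and 38.4 CPM), Gbp7 (135, 117 and 119 CPM), Igtp (49, 37.4 and 52.8 CPM), Irgm1 (169, 156 and 122 CPM) and Irgm2 (68.2, 54.7 and 66.4 CPM in IDD+HTF, IDD+HID and IDD) were not called. In Kupffer-like cells Gbp3 was at 110 CPM in IDD+HTF, 110 in IDD+HID and 196 in IDD, the high library, with ratios of 0.561 and 0.563. Igtp and Irgm2, regulatory GTPases that overlap on the same strand, were lower in IDD+HID at 0.657 and 0.625 times the IDD level and stood at 0.671 and 0.796 times in IDD+HTF. Gbp2 (90.2, 80.7 and 86.6 CPM), Gbp7 (110, 139 and 161 CPM) and Irgm1 (77.8, 62.8 and 90.3 CPM in IDD+HTF, IDD+HID and IDD) were not called in Kupffer-like cells. Summed without Iigp1, a sum formed after the values were seen, the 7 GTPases stood at 560 CPM in IDD+HTF, 537 in IDD+HID and 789 in IDD in Kupffer-like cells, 0.71 times (0.658 to 0.767) and 0.68 times (0.632 to 0.733) the IDD level. The same sum in sinusoidal endothelial-like cells was 670, 578 and 707 CPM in IDD+HTF, IDD+HID and IDD, 0.949 times (0.881 to 1.02) in IDD+HTF, which turned to 1.04 times with TMM scaling, and 0.818 times (0.762 to 0.878) in IDD+HID, or 0.987 times with TMM scaling. With Iigp1 the sum of all 8 was 1.49 and 1.5 times the IDD level in sinusoidal endothelial-like cells and 0.82 and 0.808 times in Kupffer-like cells in IDD+HTF and IDD+HID.

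Antigen presentation genes and chemokines of the gamma style list, none of them in the set of 31, were in part lower in Kupffer-like cells. Of 14 listed, 12 were measured there, and 0 were higher and 6 lower in each iron-treated library, beside 15.6% higher and 5.40% lower among all measured genes in IDD+HTF and 19.2% and 7.54% in IDD+HID. Cxcl9, a chemokine for activated T cells and a textbook interferon gamma target, stood at 63.5 CPM in IDD+HTF, 64.3 in IDD+HID and 159 in IDD. Psmb9, an immunoproteasome subunit, stood at 180, 202 and 336 CPM, and Cd274, the checkpoint ligand PD-L1, at 80.2, 76.5 and 157 CPM in IDD+HTF, IDD+HID and IDD. In all 3 genes IDD was the high library, with Cxcl9 at 0.399 (0.332 to 0.481) and 0.404 (0.34 to 0.483) times the IDD level. Tap1, a peptide transporter, was at 0.584 and 0.612 times and Nlrc5, the activator of class I genes, at 0.379 and 0.402 times the IDD level. Ciita, the master regulator of class II genes, was lower in IDD+HTF alone, with 22.2 CPM there, 83.2 in IDD+HID and 96 in IDD. B2m, the light chain of class I molecules, was at 5101 CPM in IDD+HTF, 3435 in IDD+HID and 5976 in IDD, lower by the rule in IDD+HID alone.

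Of the same list, 12 were measured in sinusoidal endothelial-like cells, and 2 were higher and 1 lower in IDD+HTF, beside 10.0% and 10.2% among all measured genes, and 1 was higher and 2 lower in IDD+HID, beside 14.6% and 19.7%. Cxcl10, a chemokine induced by both interferons, stood at 477 CPM in IDD+HTF, 671 in IDD+HID and 266 in IDD, 1.79-fold and 2.52-fold higher. Cxcl9 was at 411 CPM in IDD+HTF, 367 in IDD+HID and 274 in IDD, 1.5-fold higher in IDD+HTF. Nlrc5 was lower in both, at 0.588 and 0.381 times the IDD level, and Cxcl11 was lower in IDD+HID at 0.544 times.

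Among the remaining members of the set, the RNA sensors Ifih1 and Ddx58 were higher in Kupffer-like cells in both iron-treated libraries. Ifih1 stood at 77.4 CPM in IDD+HTF, 90.4 in IDD+HID and 41.4 in IDD (ratios of 1.87 and 2.18), and Ddx58 at 95.3, 101 and 60.2 CPM in IDD+HTF, IDD+HID and IDD (1.58 and 1.68). Neither was called in sinusoidal endothelial-like cells, with Ifih1 at 66, 62 and 61.6 CPM and Ddx58 at 85.5, 88.7 and 80 CPM in IDD+HTF, IDD+HID and IDD. Oas1a, an oligoadenylate synthetase that activates RNA decay, was higher by the rule in both classes and both libraries, at 55, 41.4 and 27.3 CPM in Kupffer-like cells and 15.8, 13.2 and 8 CPM in sinusoidal endothelial-like cells in IDD+HTF, IDD+HID and IDD. In sinusoidal endothelial-like cells the IDD level of Oas1a came from 10 UMIs (3.84 to 14.7 CPM). That interval overlaps those of IDD+HTF (12.7 to 19.6) and IDD+HID (11.2 to 15.5). Oas1a also shares 51.2% of the sequence words at its 3′ end with Oas1g, so its counts are uncertain.

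Usp18, Ifi27l2a and Parp14 passed the rule in Kupffer-like cells in IDD+HTF and not in IDD+HID. Usp18, which removes Isg15 from its targets and dampens Ifnar signalling, stood at 47.9 CPM in IDD+HTF, 32.1 in IDD+HID and 25.4 in IDD, 1.88-fold higher in IDD+HTF. Ifi27l2a, a small interferon-induced protein, was at 1605, 1125 and 1031 CPM (1.56-fold in IDD+HTF), and Parp14, an ADP-ribosyltransferase, at 288, 258 and 176 CPM in IDD+HTF, IDD+HID and IDD (1.64-fold in IDD+HTF and 1.47 times, 1.26 to 1.71, in IDD+HID, just under the rule). Zbp1 went the other way, at 65.1 CPM in IDD+HTF, 58 in IDD+HID and 110 in IDD (0.591 and 0.527 times). Rsad2, the antiviral enzyme viperin, was at 292 CPM in IDD+HTF, 173 in IDD+HID and 232 in IDD in Kupffer-like cells, with no call, and at 172, 208 and 130 CPM in sinusoidal endothelial-like cells, 1.6-fold higher in IDD+HID. The sinusoidal endothelial-like class had Rtp4 at 155 CPM in IDD+HTF, 118 in IDD+HID and 89.6 in IDD (1.73-fold higher in IDD+HTF), and Ifi27l2a at 16, 16.2 and 8 CPM (2-fold and 2.02-fold, from 10 UMIs in IDD).

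The membrane-bound antiviral proteins Ifitm3 and Bst2 were not called in either class. Ifitm3, which blocks virus entry, stood at 1454, 1430 and 1256 CPM in sinusoidal endothelial-like cells and 1569, 1685 and 1595 CPM in Kupffer-like cells in IDD+HTF, IDD+HID and IDD. Bst2, or tetherin, which holds budding virus at the surface, stood at 817, 862 and 855 CPM in sinusoidal endothelial-like cells and 471, 440 and 471 CPM in Kupffer-like cells. Oasl2 (140, 101 and 111 CPM), Usp18 (34.8, 28.8 and 24.8 CPM), Ifi44 (124, 98.2 and 95.2 CPM), Xaf1 (137, 106 and 123 CPM) and Parp14 (274, 253 and 221 CPM) were not called in sinusoidal endothelial-like cells. Oasl2 (126, 107 and 92.2 CPM), Rtp4 (247, 195 and 229 CPM), Ifi44 (44.6, 41.2 and 31.1 CPM) and Xaf1 (110, 93.6 and 89.4 CPM in IDD+HTF, IDD+HID and IDD) were not called in Kupffer-like cells.

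Of 36 further interferon-stimulated genes listed, 34 were measured in Kupffer-like cells, and 9 were higher and 2 lower in IDD+HTF, beside 15.6% and 5.40% among all measured genes, and 9 higher and 5 lower in IDD+HID, beside 19.2% and 7.54%. Eif2ak2, the RNA-activated kinase PKR, was higher in both, at 96.7 CPM in IDD+HTF, 104 in IDD+HID and 57.4 in IDD. Oas2 and Oasl1 passed the rule in IDD+HTF and not in IDD+HID, at 86.2, 54.9 and 42.3 CPM and 91.2, 57.1 and 40.5 CPM in IDD+HTF, IDD+HID and IDD. Ifi209 was higher in both iron-treated libraries (1.71-fold and 1.85-fold), Tor3a and Parp12 in IDD+HTF (1.65-fold each), and Ifitm2 and Ifi203 in IDD+HID (1.64-fold and 1.6-fold). Ly6e, a surface antigen, and Gbp8 were lower in IDD+HID, at 0.64 and 0.662 times the IDD level. Among sinusoidal endothelial-like cells, 4 of 30 were higher and 1 lower in IDD+HTF, beside 10.0% and 10.2% among all measured genes, and 2 higher and 3 lower in IDD+HID, beside 14.6% and 19.7%. Cmpk2, a nucleotide kinase next to Rsad2, was higher in both, at 42.7 CPM in IDD+HTF, 44.1 in IDD+HID and 25.6 in IDD, and Lgals3bp, Mx2 and Slfn2 were higher in IDD+HTF (1.57-fold, 1.79-fold and 3.23-fold). Mx1, an antiviral GTPase, was higher in IDD+HID alone, at 14.7 CPM in IDD+HTF, 69.4 in IDD+HID and 20 in IDD, and Gbp5, another guanylate-binding protein, was lower in both, at 0.56 and 0.577 times the IDD level.

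The mix of clusters within a class moved with the library and bears directly on some of these values. Within the sinusoidal endothelial-like class cluster 12, whose leading genes are the early response genes Apold1 and Adamts1 with Cxcl10, Iigp1 and Socs3 among them, held 402 of 776 cells in IDD+HTF, 672 of 1164 in IDD+HID and 57 of 330 in IDD, and cluster 1 held 364, 464 and 271. Isg15 was higher in both clusters. In cluster 12 it stood at 285 CPM in IDD+HTF, 338 in IDD+HID and 143 in IDD (1.99-fold, 1.45 to 2.79, and 2.36-fold, 1.73 to 3.29), and in cluster 1 at 117, 84.1 and 22.1 CPM in IDD+HTF, IDD+HID and IDD (5.3-fold, 3.39 to 8.71, and 3.82-fold, 2.45 to 6.26). Gbp4 was lower in both, at 0.472 and 0.43 times the IDD level in cluster 12 and 0.579 and 0.399 times in cluster 1 in IDD+HTF and IDD+HID.

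Iigp1, Irf1, Rsad2 and Ifit1 did not keep their class ratio within clusters. Iigp1 stood at 2585 CPM in IDD+HTF, 2708 in IDD+HID and 2334 in IDD in cluster 12, and at 1015, 610 and 697 CPM in IDD+HTF, IDD+HID and IDD in cluster 1. Its ratios were thus 1.11 and 1.16 in cluster 12 and 1.46 and 0.875 in cluster 1, all below the class ratios of 1.85 and 1.96. Irf1 was at 0.657 times the IDD level in IDD+HTF and 1.18 times in IDD+HID in cluster 12, and at 0.759 and 0.7 times in cluster 1, so the higher Irf1 of IDD+HID was not seen within cluster 1. Rsad2 and Ifit1 ran opposite ways in the 2 clusters: Rsad2 was lower in cluster 12 (0.535 and 0.672 times) and higher in cluster 1 (2.37-fold and 2.5-fold), and Ifit1 was lower in cluster 12 (0.42 and 0.436 times) and at 1.7 and 1.28 times in cluster 1, in IDD+HTF and IDD+HID. The difference between the clusters was not tested, and the IDD side of cluster 12 was 57 cells. In IDD, 1 sinusoidal endothelial-like cell held 48 of the 368 UMIs of the type I style genes (13%). The counting intervals do not cover such differences between cells. Ifit2 and Ifit3 were also higher in cluster 1 in IDD+HTF (1.86-fold and 1.6-fold). They were not called there in IDD+HID (1.11 and 1.24 times), nor in cluster 12 in either library. Outside the set, Socs1 stood at 138, 227 and 98 CPM in cluster 12 and 50.8, 60.8 and 36.8 CPM in cluster 1 in IDD+HTF, IDD+HID and IDD. Socs3 stood at 408, 671 and 546 CPM and Cxcl10 at 671, 885 and 798 CPM in IDD+HTF, IDD+HID and IDD in cluster 12. In IDD+HTF, Socs3 and Cxcl10 were thus below IDD within cluster 12, although both were higher in the whole class.

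In Kupffer-like cells cluster 3 held most IDD cells (313, 236 and 82 cells in IDD+HTF, IDD+HID and IDD), and cluster 22, led by Cxcl2, Il1b and Cd83, held 66, 296 and 11. Isg15 in cluster 3 stood at 177 CPM in IDD+HTF, 104 in IDD+HID and 28.8 in IDD, 6.14-fold (4.22 to 9.29) and 3.63-fold (2.47 to 5.52) higher. Gbp4 was at 0.501 and 0.458 times the IDD level there. In cluster 22 the IDD library had 1 Gbp4 UMI and 5 Isg15 UMIs, so Gbp4 had ratios of 7.71 (1.35 to 308) and 4.37 (0.778 to 174), and the direction seen in the class rests on cluster 3. The 7 GTPases without Iigp1 were lower in both clusters, at 0.713 and 0.682 times in cluster 3 and 0.685 and 0.661 times in cluster 22 in IDD+HTF and IDD+HID.

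**Figure D3:**
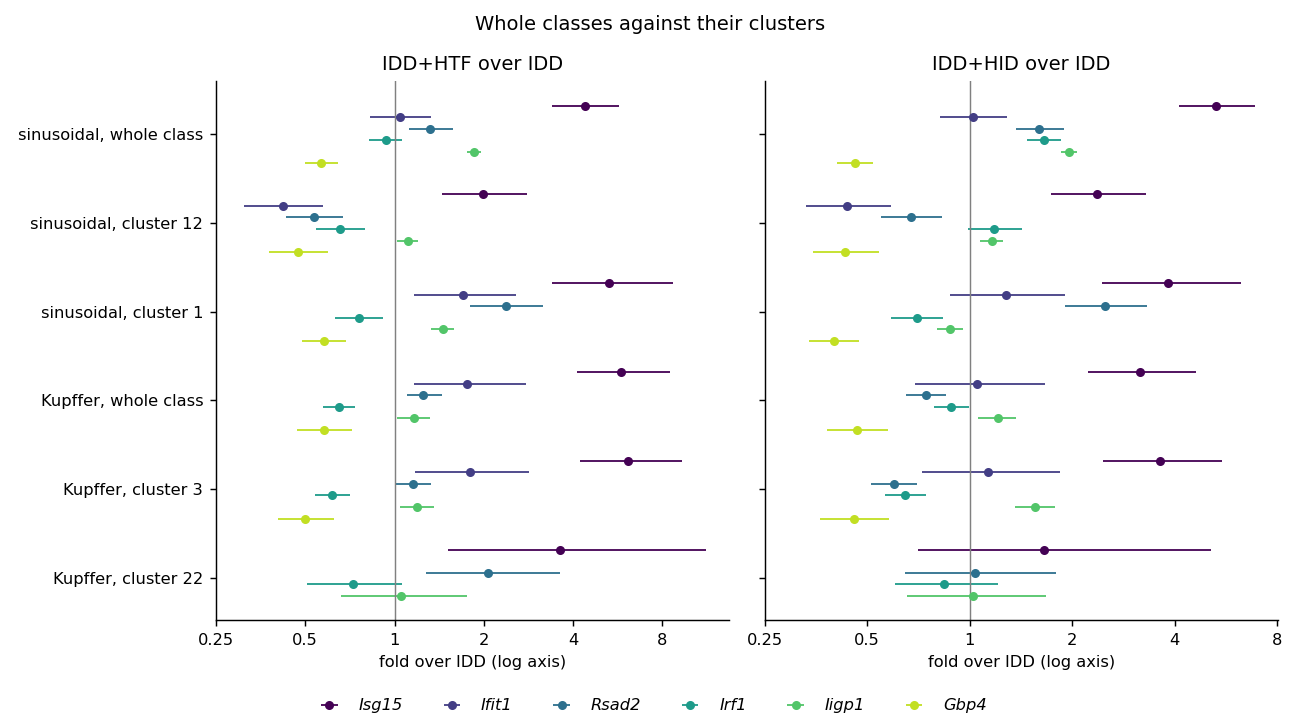
Ratio to IDD (log axis, IDD+HTF and IDD+HID, 95% intervals for counting error) of Isg15, Ifit1, Rsad2, Irf1, Iigp1 and Gbp4 in the whole sinusoidal endothelial-like and Kupffer-like classes and in clusters 12, 1, 3 and 22. Isg15 lies above 1 in every panel group and Gbp4 below 1 in clusters 12, 1 and 3, while Rsad2 and Ifit1 lie below 1 in cluster 12 and above 1 in cluster 1; ratios that rest on at most 3 IDD UMIs are not drawn.

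In vascular endothelial-like cells (clusters 8 and 11, with 87, 149 and 58 cells in IDD+HTF, IDD+HID and IDD) Isg15 was again higher and Gbp4 lower. In IDD+HTF 26 genes of the set were measured, 6 were higher and 4 lower, beside 13.3% higher and 9.14% lower among all measured genes, and in IDD+HID 29 were measured, 9 higher and 5 lower, beside 18.7% and 12.3%. Isg15 stood at 351 CPM in IDD+HTF, 327 in IDD+HID and 63.2 in IDD (5.55-fold, 3.47 to 9.37, and 5.18-fold, 3.29 to 8.66), and Gbp4 at 265, 213 and 446 CPM in IDD+HTF, IDD+HID and IDD (0.594 and 0.478 times). Gbp7 was lower in both iron-treated libraries, at 143, 140 and 223 CPM in IDD+HTF, IDD+HID and IDD, and Iigp1 was higher in IDD+HID alone, at 1602, 2327 and 1255 CPM in IDD+HTF, IDD+HID and IDD. Irf1 was at 293 CPM in IDD+HTF, 530 in IDD+HID and 220 in IDD, 2.41-fold higher in IDD+HID, and Oasl2 and Ifit1 were 2.23-fold and 2.21-fold higher in IDD+HTF. The 7 GTPases without Iigp1 were at 0.683 and 0.563 times the IDD level in IDD+HTF and IDD+HID, and the Ifit genes at 1.46 and 1.32 times. Few cells set the IDD levels of this class. Of 58 cells, 5 held 49.4% of the UMIs of the 8 gamma style GTPases, with 23.3% in 1 cell. For the type I style genes, 5 cells held 48.8% of 86 UMIs. Cluster 8 held 19, 23 and 24 cells and cluster 11 held 68, 126 and 34 in IDD+HTF, IDD+HID and IDD. The part of this mix was not tested.

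Stellate-like cells (cluster 9, with 141, 114 and 136 cells in IDD+HTF, IDD+HID and IDD) had 29 genes measured in each comparison. In IDD+HTF 5 were higher and 6 lower, beside 23.8% and 10.6% of all measured genes, and in IDD+HID 7 were higher and 6 lower, beside 31.1% and 15.9%. Isg15 stood at 222 CPM in IDD+HTF, 340 in IDD+HID and 70.5 in IDD (3.15-fold, 2.32 to 4.37, and 4.82-fold, 3.59 to 6.62). Iigp1 was at 1318, 1675 and 827 CPM and Bst2 at 468, 515 and 257 CPM in IDD+HTF, IDD+HID and IDD, both higher in both iron-treated libraries. The Ifit genes went against Isg15 here, at 301 CPM in IDD+HTF, 340 in IDD+HID and 422 in IDD, 0.713 times (0.612 to 0.833) and 0.805 times (0.696 to 0.932), with Ifit3 at 129, 133 and 218 CPM in IDD+HTF, IDD+HID and IDD. Irgm2 was at 110 CPM in IDD+HTF, 68.2 in IDD+HID and 200 in IDD, and Gbp7 was lower in IDD+HID (136 CPM, against 216 in IDD) and Irf1 higher in IDD+HID (322 CPM, against 140 in IDD). Kupffer markers summed to 1509 CPM in IDD+HTF, 1224 in IDD+HID and 22 in IDD in this class, and sinusoidal markers to 9823, 11379 and 3148 CPM, and the part of these in the stellate-like values was not tested.

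T-like cells (clusters 10 and 16, with 131, 255 and 75 cells in IDD+HTF, IDD+HID and IDD) showed no such Isg15 difference. Isg15 stood at 275 CPM in IDD+HTF, 239 in IDD+HID and 200 in IDD, 1.37 times (1.06 to 1.79) and 1.2 times (0.95 to 1.52) the IDD level, and T-like cells were the class with the highest Isg15 level in the IDD library. Few cells weigh on that IDD level. Of the 75 cells, 5 held 52.1% of the 142 UMIs of Isg15 and the Ifit genes, with 19.7% in 1 cell. In IDD+HTF 18 genes were measured, 3 higher and 3 lower, beside 10.3% and 11.7% among all measured genes, and in IDD+HID 27, with 7 higher and 3 lower, beside 15.0% and 8.36%. Irf1 was lower in both iron-treated libraries, at 125 CPM in IDD+HTF, 162 in IDD+HID and 276 in IDD (0.454 times, 0.341 to 0.601, and 0.587 times, 0.474 to 0.73). Gbp2 was lower in both too, at 51.2, 48.5 and 87.5 CPM in IDD+HTF, IDD+HID and IDD, and Igtp stood at 155, 177 and 247 CPM. Cluster 10 held 59, 107 and 22 of the T-like cells and cluster 16 held 72, 148 and 53 in IDD+HTF, IDD+HID and IDD. The part of this mix in the T-like values was not tested. Ddx58 was higher in both, at 79.7, 82.9 and 38.2 CPM in IDD+HTF, IDD+HID and IDD, Ifit1 in IDD+HTF (79.7 CPM, against 47.1 in IDD) and Bst2 in IDD+HID (197 CPM, against 130 in IDD). Kupffer markers in this class summed to 86.8 CPM in IDD+HTF, 362 in IDD+HID and 6.73 in IDD, beside the 6.64-fold higher Ifitm3 in IDD+HID (89.4 CPM, against 13.5 in IDD), and their part in it was not tested.

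In B-like cells 6 genes of the set were measured in IDD+HTF and 17 in IDD+HID, and Irf1 was lower in both, at 97 CPM in IDD+HTF, 65 in IDD+HID and 147 in IDD. In IDD+HID alone, Ifitm3 was higher (60.5 CPM, against 28.4 in IDD), and Stat2 (36.2 CPM, against 61.9 in IDD) and Gbp2 (15.5 CPM, against 41.3 in IDD) were lower. Hepatocyte-like cells (1031, 261 and 246 cells in IDD+HTF, IDD+HID and IDD) had 4 and 6 genes measured. There Isg15 stood at 8.25 CPM in IDD+HTF, 91 in IDD+HID and 4.49 in IDD, the last from 3 UMIs (20.3-fold in IDD+HID, 6.72 to 100), and Iigp1 at 194, 516 and 204 CPM in IDD+HTF, IDD+HID and IDD. Of the 261 IDD+HID cells, 5 held 53.6% of the UMIs of Isg15 and the Ifit genes. For the gamma style GTPases, 5 cells held 41.8%. Cluster 2 held 636, 35 and 153 cells of the class and cluster 6 held 199, 177 and 58 in IDD+HTF, IDD+HID and IDD. The part of this mix was not tested. In IDD+HTF, Ifitm3 (445 CPM, against 811 in IDD) and Irf7 (13.6 CPM, against 26.9 in IDD) were lower. In IDD+HID hepatocyte-like cells sinusoidal markers summed to 1259 CPM, against 156 CPM in IDD, ribosomal RNA and repeats to 81710 CPM, against 251973 CPM in IDD, and other scalings moved all genes by 0.83 to 0.97 on the log2 scale. The part of these in the higher values was not tested, and Ifitm3 and Irgm1, higher as counted (1.5-fold and 1.84-fold), turned to 0.766 and 0.936 times the IDD level with median-of-ratios scaling. No share of all measured genes past the same fold is given for B-like or hepatocyte-like cells. The calls in these classes therefore cannot be read as a result about the set.

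**Figure D4:**
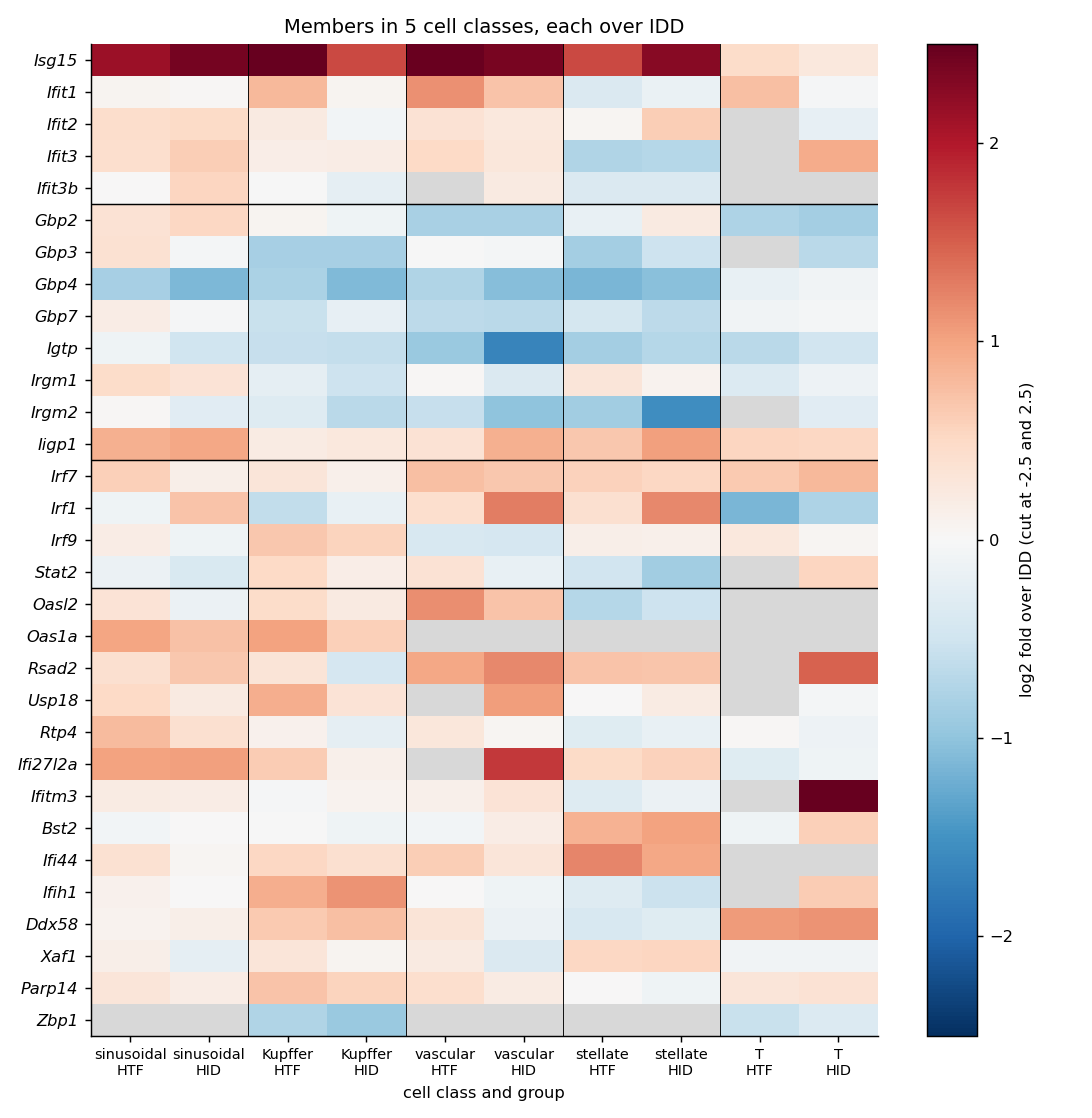
Log2 ratio to IDD of each of the 31 genes in 5 cell classes, with the IDD+HTF and IDD+HID columns side by side for each class and grey where a gene had under 50 UMIs in the pair of libraries. Isg15 is positive in all 5 classes, with its smallest values in T-like cells, while Gbp4 is negative in the sinusoidal, Kupffer, vascular and stellate-like classes.

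The iron-treated libraries can also be set against each other. Irf1 was in sinusoidal endothelial-like cells the member that differed most, at 408 CPM in IDD+HID against 231 in IDD+HTF (1.76-fold, 1.66 to 1.88), while Isg15 was 1.21 times as high in IDD+HID and Oasl2 0.722 times. The Irf1 difference was seen in cluster 12 (515 CPM in IDD+HID, against 287 in IDD+HTF) and not in cluster 1 (135 against 146 CPM). In Kupffer-like cells Isg15 (0.543 times, 0.496 to 0.595), Ifit1 (0.596 times) and Rsad2 (0.592 times) were lower in IDD+HID than in IDD+HTF, while Ifit2 (0.808 times), Ifit3 (1 times) and Ifit3b (0.865 times) were not called. Within cluster 3, Rsad2 had 142 CPM in IDD+HID, against 273 in IDD+HTF, and Isg15 had 104 CPM in IDD+HID, against 177 in IDD+HTF.

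Some members were highest in the same class whatever the library. Among the 7 classes with at least 50 cells in each library, 13 of the 31 genes had the same class on top in all 3 libraries, and in 7 of these the interval of the ratio to the next class left out 1 each time. Irf7 and Gbp3 were highest in Kupffer-like cells, with Irf7 at 523, 464 and 423 CPM, against 105, 101 and 70.5 CPM in stellate-like cells, the next class, in IDD+HTF, IDD+HID and IDD. Igtp was highest in T-like cells, Bst2 in sinusoidal endothelial-like cells, Gbp4 in vascular endothelial-like cells, and Ifit3 and Ifitm3 in stellate-like cells, with Ifitm3 there at 2002 CPM in IDD+HTF, 2265 in IDD+HID and 2507 in IDD. The Bst2 lead over vascular endothelial-like cells was small, at 1.18, 1.06 and 1.19 times in IDD+HTF, IDD+HID and IDD. Plasmacytoid dendritic-like cells, outside the 7 classes, held more Bst2 in every library, as given below. Isg15 did not keep its top class: it was highest in vascular endothelial-like cells in IDD+HTF, in stellate-like cells in IDD+HID, with vascular endothelial-like cells within counting error, and in T-like cells in IDD. The T-like level in IDD rests on few cells, as given above.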

How the data were processed

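The authors deposited raw UMI counts per gene and barcode for each library, unfiltered; per the submitters' processing notes the genome build was GRCm38 and Seurat 4 was used, and for the aligner, the counter and the use of strand in counting the record reads: not given in the sources used here. The deposited counts held 55421 gene entries, of which 55240 have a symbol in the GRCm38 annotation, and no column of another sample (0). Where a gene of the set overlaps another on the opposite strand (Irf1 with Gm17334, Irf7 with Phrf1, Rtp4 with Masp1), it is therefore not known whether their reads were kept apart. Irf9 and Rnf31 overlap on the same strand, so reads from the shared stretch cannot be told apart by strand. The libraries held 55478904 UMIs in IDD+HTF, 75404660 in IDD+HID and 34552858 in IDD.

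Barcodes with at least 1000 UMIs, 300 genes and at most 20% mitochondrial UMIs were kept as cells. Doublets were called with Scrublet in scanpy 1.11.5 and removed (0.156% of cells in IDD+HTF, 0.197% in IDD+HID and 1.72% in IDD); at such shares the caller did not work in the iron-treated libraries, so doublets remain. Each pair of libraries shared 1 cell barcode. Cells were clustered on 2000 variable genes, 30 principal components and 15 neighbours with Leiden at resolution 1 (igraph 0.11.9, seed 1), leaving out the 31 genes and the pathway lists, and clusters were named from marker lists, with clusters 4, 14, 15, 17 and 24 left unnamed. UMIs were summed per class and library. Poisson intervals for CPM and exact conditional binomial intervals for ratios came from scipy 1.17.1, with numpy 2.4.6 and Python 3.11, and shares of cells have Clopper-Pearson intervals. The ratio step was tested on simulated counts.

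All 31 genes are given values in the sinusoidal endothelial-like and Kupffer-like classes. In other classes those at least 1.5-fold apart with an interval that leaves out 1 are named, at most 5 per class and comparison by UMIs, and of the pathway lists at most 6 per list in the 2 main classes. The set, the lists and the markers were chosen with earlier results of these data known. One gene of the signalling list is not reported here, so that list is described by its higher genes. Alternatives were other scalings, filters, clusters, weightings of cells and a subtraction of free RNA.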

Additional observations from a re-analysis of the deposited data

How the results depend on the processing

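No paired analysis was possible because the groups share only replicate number 1. Of the summary values and their alternatives, 150 stayed within the limits set, 43 moved and 2 reversed, and of single genes 508 stayed, 41 moved and 9 reversed; the cause was not tested except where the alternative itself restricts the cells. Subtracting free RNA, keeping called doublets, at least 2000 UMIs per cell and at least 200 UMIs per gene moved none of these. Only 5 cells in IDD+HTF and 7 in IDD+HID were called doublets. Keeping them therefore says nothing about the doublets that remain. Ratios to IDD are given for IDD+HTF and IDD+HID.

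In sinusoidal endothelial-like cells the type I style sum in IDD+HTF was 1.55 with at most 10% mitochondrial UMIs, 2.22 as a mean over cells, 0.986 in cluster 12 (reversed) and 1.98 in cluster 1, and in IDD+HID 2.41 with TMM, 2.36 as a mean over cells, 1.19 in cluster 12 and 1.46 in cluster 1. The gamma style sum in IDD+HTF was 1.64 with TMM, 1.41 without mitochondrial, ribosomal RNA and repeat UMIs, 1.39 with at most 10% mitochondrial UMIs, 1.62 as a mean over cells, 1.04 in cluster 12 and 1.19 in cluster 1, and in IDD+HID 1.82, 1.39, 1.44 and, in cluster 12, 1.06, and 0.784 in cluster 1 (reversed). In Kupffer-like cells the type I style sum was 2.93 in IDD+HTF and 2.24 in IDD+HID in cluster 22, and the gamma style sum 0.764 there in IDD+HTF, and in IDD+HID 0.745 with median-of-ratios scaling, 0.897 in cluster 3 and 0.739 in cluster 22.

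Counts of genes moved as follows. No share of all measured genes at these settings is given beside them, so they cannot be read as a result about the set. In sinusoidal endothelial-like cells in IDD+HTF, 10 were higher as a mean over cells and 2 at 2-fold, and 4 lower in cluster 12 and 0 at 2-fold. In IDD+HID, 12 were higher with TMM, 4 with at most 10% mitochondrial UMIs, 3 in cluster 1 and 2 at 2-fold, and 2 lower without ribosomal and repeat UMIs, at 20 UMIs and with at most 10% mitochondrial UMIs, 4 in cluster 12 and 3 in cluster 1. In Kupffer-like cells in IDD+HTF 2 were higher and 0 lower at 2-fold, and in IDD+HID 7 were higher in cluster 3, 12 in cluster 22 and 2 at 2-fold, and 3 lower in cluster 22 and 1 at 2-fold. The cluster 22 counts rest on 11 IDD cells, with 1 IDD UMI each for Ifit1, Ifit3, Usp18 and Ifi44 among the higher genes.

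Single genes that reversed were, in IDD+HID, Rsad2 (0.672 in cluster 12), Iigp1 (0.875) and Irf1 (0.7 in cluster 1), Oas1a in Kupffer-like cells (0.935 in cluster 22) and, in hepatocyte-like cells, Ifitm3 (0.842 with TMM, 0.766 with median-of-ratios) and Irgm1 (0.936 with median-of-ratios), and Gbp4 in cluster 22 (7.71 in IDD+HTF and 4.37 in IDD+HID, from 1 IDD UMI). TMM shifted all genes of sinusoidal endothelial-like cells by -0.14 in IDD+HTF and -0.27 in IDD+HID (log2), and median-of-ratios those of Kupffer-like cells by 0.12 in IDD+HID.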

Other observations

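In Kupffer-like cells 348 of 379 cells held a UMI of Isg15 or an Ifit gene in IDD+HTF, 473 of 532 in IDD+HID and 73 of 93 in IDD, and in sinusoidal endothelial-like cells 561 of 776, 907 of 1164 and 111 of 330, at the depths given above. The 5 cells with the most UMIs of Isg15 and the Ifit genes held 7.08% of those UMIs in IDD+HTF, 4.82% in IDD+HID and 32.3% in IDD in sinusoidal endothelial-like cells, and 9.07%, 6.38% and 26.1% in Kupffer-like cells, a share that also follows the number of cells. With a threshold chosen after the values were seen (at least 0.2% of a cell's UMIs and at least 5 UMIs in these genes, in cells of at least 2500 UMIs), 62 of 2341 cells (2.65%, 2.04 to 3.38) passed in IDD+HTF, 88 of 3159 (2.79%, 2.24 to 3.42) in IDD+HID and 17 of 933 (1.82%, 1.06 to 2.9) in IDD. In sinusoidal endothelial-like cells 37 of 717 (5.16%, 3.66 to 7.04) passed in IDD+HTF, 50 of 1078 (4.64%, 3.46 to 6.07) in IDD+HID and 6 of 235 (2.55%, 0.943 to 5.47) in IDD. In Kupffer-like cells 5 of 377 (1.33%, 0.432 to 3.07) passed in IDD+HTF, 5 of 530 (0.943%, 0.307 to 2.19) in IDD+HID and 1 of 92 (1.09%, 0.0275 to 5.91) in IDD. The intervals of IDD overlap those of both iron-treated libraries in each of these.

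Single cells set the level of small classes. In the cholangiocyte-like class of IDD+HTF, 1 of 9 cells held 303 of the 330 UMIs of the type I style genes (91.8%) and 192 of the 216 UMIs of the gamma style GTPases (88.9%), and in the NK or ILC1-like class of IDD 1 of 17 cells held 47 of 49 type I style UMIs (95.9%). Plasmacytoid dendritic-like cells (72, 123 and 23 cells in IDD+HTF, IDD+HID and IDD), a class known for producing type I interferon, held Bst2 at 3403, 4192 and 3668 CPM and Isg15 at 88.5 CPM in IDD+HTF, 61.1 in IDD+HID and 14.6 in IDD, the last from 3 UMIs. In the unnamed cluster 15 Isg15 stood at 168 CPM in IDD+HTF, 145 in IDD+HID and 37.1 in IDD.

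With 1 mouse per group, treatment, animal, dissociation and sequencing run cannot be told apart. Depth differed, the IDD library being the shallowest with the fewest cells, and ribosomal RNA and repeats summed to 66621 CPM in IDD+HTF, 45704 in IDD+HID and 97887 in IDD in sinusoidal endothelial-like cells. Summed sinusoidal markers in Kupffer-like cells stood at 1011, 1630 and 282 CPM in IDD+HTF, IDD+HID and IDD, and their part in the results was not tested.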
